A study of Mus musculus with 2 samples.

Results

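Chemokines and chemokine receptors were followed in liver tumor RNA of Fabp4-/- and WT mice. The members were the protein-coding rows of the gene table whose symbols begin with Ccl, Cxcl, Ccr, Cxcr or Ackr and a number, plus Cx3cl1, Cx3cr1, Xcl1 and Xcr1. This rule gave 67 rows with 61 symbols out of 48526 rows, of which 44 rows (38 symbols) were ligands and 23 were receptors. Of the ligand rows, 7 lie on unplaced scaffolds and are copies of the Ccl19, Ccl21 and Ccl27 genes.

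The samples were tumors from male C57BL/6N mice that carried a homozygous Fabp4 deletion (Fabp4-/-, 1 library) and from WT littermates (1 library). All mice had been injected with the liver carcinogen N-nitrosodiethylamine (DEN, 25 mg/kg) when 14 days old and were fed a high-fat diet (HFD) for 29 weeks, starting at 6 weeks of age. The number of animals or tumors behind a library was not given in the sources used here. Because each genotype had a single library, the differences below have no replicate check and no p-value.

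Chemokines are small secreted proteins that guide leukocytes through G protein-coupled receptors, and each receptor marks the cells that can respond to its ligands. In the liver, Kupffer cells, endothelium, stellate cells, hepatocytes and infiltrating lymphocytes all secrete them. Interferon-gamma from T and NK cells induces the CXCR3 ligands, which in turn attract activated T and NK cells, whereas NF-kB signaling induces the CXCR2 ligands, which attract neutrophils.

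Fabp4, the targeted gene, was at 0.03 TPM in the Fabp4-/- library, against 44.1 TPM in the WT library. TPM is the abundance of a transcript after correction for its length and for the total of its library. The libraries held 59600850 estimated read pairs for Fabp4-/- and 56353665 for WT, and the 20 most abundant genes took 36.8% of them in Fabp4-/- and 28.2% in WT. Over the 13557 genes at 1 TPM or more in the higher library, the median log2 ratio of Fabp4-/- over WT was −0.46 by TPM, whereas normalised counts, the authors' second measure, gave 0.04. Ratios by TPM carry a pseudocount of 0.5 on each side, which pulls low genes toward 0, and a member near −0.46 by TPM therefore lay near the middle of all genes. Ratios by normalised counts are given with a 95% exact binomial interval, which covers counting error only and not the difference between tumors.

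Cxcl9 and Ccl5, which attract T and NK cells, and the less abundant Ccl8, Ccl12 and Ccl21c had the lowest ratios of all measured members by normalised counts, while the CXCR2 ligands Cxcl1 and Cxcl2 and the CCR1 ligand Ccl9 were among the highest. Of 44 ligand rows, 31 reached 1 TPM in the higher library, 9 were below it in both and 4 were at 0 in both. By TPM, 16 of the 31 were at least 2-fold lower in Fabp4-/- and 2 were at least 2-fold higher, against 14.2% lower and 2.18% higher among all genes, and 13.3% and 1.53% among protein-coding genes. By normalised counts, 14 were lower and 5 were higher, against 7.60% and 5.76% of all genes, and 6.52% and 4.56% of protein-coding genes. The median log2 ratio of the 31 ligands was −1.04 by TPM and −0.96 by normalised counts. A ligand that reached 1 TPM in WT alone had to be lower in Fabp4-/-, and this held for 11 ligands, against 1 (Ccl24) that reached it in Fabp4-/- alone. Among the 19 ligands at 1 TPM or more in both libraries, 7 were lower and 1 was higher by TPM (median −0.44), while normalised counts gave 6 lower and 4 higher (median 0.08). Of the 11918 genes that met this filter, 10.6% were lower and 1.54% higher on the TPM scale, against 3.36% and 4.95% on that of normalised counts. In bulk RNA, fewer cells of a type and less RNA per cell cannot be told apart, for these and all later values.

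**Figure D1:**
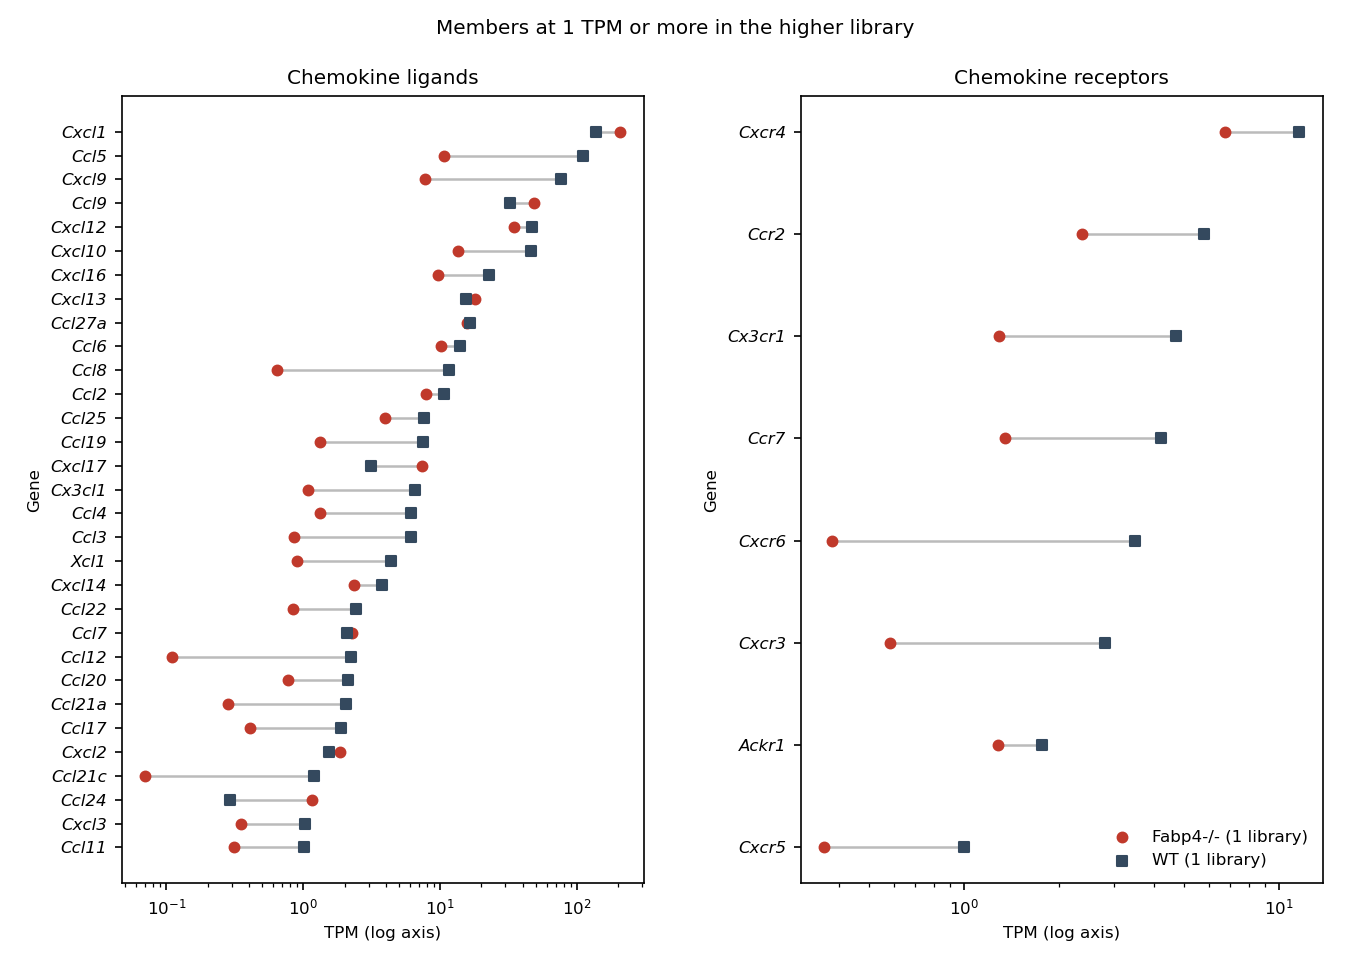
TPM on a log axis of the 31 ligands and 8 of the receptors at 1 TPM or more in the higher library, with a red circle for the Fabp4-/- library and a dark square for the WT library, sorted by the higher value. Cxcl1 had the highest level in both libraries, while Ccl5 and Cxcl9 came next in WT, at 110 and 75.8 TPM, and at 10.7 and 7.76 TPM in Fabp4-/-.

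Cxcl9 and Cxcl10, interferon-induced ligands of CXCR3, were lower in Fabp4-/-. The related gene Cxcl11, a polymorphic pseudogene in the annotation and hence no member, was not (log2 ratio 0.99 by normalised counts). Cxcl9 (ENSMUSG00000029417.9, mm10 chr5:92321347-92328079, minus strand) was at 7.76 TPM in Fabp4-/- and 75.8 TPM in WT, from 964 and 8071 estimated read pairs. Its level by normalised counts was 6.51-fold lower in Fabp4-/- (95% interval 6.09 to 6.96). Cxcl10 (ENSMUSG00000034855.13, chr5:92346638-92348889, minus strand), its neighbor, was at 13.5 TPM in Fabp4-/- and 46.3 TPM in WT, from 676 and 1967 read pairs, a 2.26-fold lower level (2.07 to 2.47). Both genes were thus lower, and the counting intervals of their ratios did not overlap. Cxcl10 overlaps the gene Art3, and the strand setting of the counting was not given in the sources used here, so reads of the pair cannot be told apart. The same limit holds for Ccl2, Ccl6, Ccl19, Ccl21a, Ccl25, Ccl27a, Xcl1, Cxcl15, Cxcl16, Cxcl17, Cxcr6, Cx3cr1, Ccr9, Ccr10, Ackr1 and Ackr4, which with Cxcl10 make up the 17 member rows that overlap another row.

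The promoters of Cxcl9 and Cxcl10 are shown because these neighbors share a receptor and were both lower, by unequal amounts. Each run below holds the 250 bases before the start site in RefSeq (GRCm38.p6, minus strand, 5′ to 3′), chr5:92328080-92328329 for Cxcl9 and chr5:92348890-92349139 for Cxcl10. Capitals mark matches to an ISRE-like motif (GAAA, NN, GAAA), a GAS motif (TTC, NNN, GAA) or an NF-kB-like motif (GGGA, NN, TTCC), where N is any base.
Cxcl9: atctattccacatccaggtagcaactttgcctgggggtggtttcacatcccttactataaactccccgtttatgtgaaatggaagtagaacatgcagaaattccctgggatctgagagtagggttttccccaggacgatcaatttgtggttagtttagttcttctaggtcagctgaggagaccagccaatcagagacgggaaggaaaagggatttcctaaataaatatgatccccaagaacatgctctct
Cxcl10: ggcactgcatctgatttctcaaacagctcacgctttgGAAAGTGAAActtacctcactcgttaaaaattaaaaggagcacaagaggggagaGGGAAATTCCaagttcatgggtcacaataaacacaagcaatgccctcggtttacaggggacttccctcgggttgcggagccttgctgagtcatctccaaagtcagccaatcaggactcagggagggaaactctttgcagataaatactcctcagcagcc
The Cxcl10 window held 1 ISRE-like match (GAAAGTGAAA, from −213 to −204) and 1 NF-kB-like match (GGGAAATTCC, from −159 to −150), and the Cxcl9 window held no match to these letters. A match is a description of the letters and not a bound site. Other forms of these elements were not searched, so a window without a match may still hold one.

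These motifs were searched on both strands in windows from 250 bases before to 50 bases after the start site, which RefSeq gave for 46 of 60 member symbols on placed chromosomes, in 53 windows. The ISRE-like motif was in 3 of 53 member windows (Ccl19, Cxcl10 and Cxcl14) and in 3.44% of all 32851 promoters. The GAS motif, which reads the same on both strands, was in 4 of 53 (Ccl17, Cxcl14, Ccr6 and Ccr1l1) and in 8.30% of all. The NF-kB-like motif was in 6 of 53 (Cxcl1, Cxcl2, Cxcl3, Cxcl10, Ccl1 and Ccr3) and in 1.47% of all. Members with the NF-kB-like motif did not share a direction, since Cxcl1 and Cxcl2 had positive ratios by both scales whereas those of Cxcl10 were negative. The 3 members with the ISRE-like motif had negative ratios by both scales, which for Cxcl14 were −0.59 by TPM and −0.12 by normalised counts. With the GAS motif, Ccl17, Cxcl14 and Ccr6 had negative ratios and Ccr1l1 a positive one, on 2 read pairs in Fabp4-/- and 1 in WT.

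Among the inflammatory CC ligands around CCR1, Ccl5, Ccl3 and Ccl4 were lower in Fabp4-/- and Ccl9 was higher. Ccl5 (RANTES, ENSMUSG00000035042.2, chr11:83525778-83530518, minus strand), a product of activated T and NK cells, was at 10.7 TPM in Fabp4-/- and 110 TPM in WT, from 196 and 1749 read pairs. Its level by normalised counts was 6.93-fold lower in Fabp4-/- (5.98 to 8.08). Ccl3 and Ccl4, the macrophage inflammatory proteins that attract T cells and monocytes, were both lower as well. Ccl3 was at 0.85 TPM in Fabp4-/- and 6.11 TPM in WT. Ccl4 was at 1.32 TPM in Fabp4-/- and 6.16 TPM in WT. Ccl9, a CCR1 ligand of myeloid cells in mice, was at 48.7 TPM in Fabp4-/- and 32.4 TPM in WT, from 3879 and 2223 read pairs. Its log2 ratio was 0.58 by TPM and 1.17 by normalised counts (1.09 to 1.24), so that it was higher by both. Ccl6, a related mouse ligand, was at 10.1 TPM in Fabp4-/- and 13.9 TPM in WT, and its log2 ratio turned from −0.44 by TPM to 0.13 by normalised counts.

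The monocyte attractants that bind CCR2 went different ways. Ccl12, the mouse ligand MCP-5, was at 0.11 TPM in Fabp4-/- and 2.24 TPM in WT, from 2 and 36 read pairs, a 14.0-fold lower level with a wide interval (3.60 to 120). Ccl2, the main ligand of CCR2, was at 7.92 TPM in Fabp4-/- and 10.7 TPM in WT, with log2 ratios of −0.41 by TPM and 0.14 by normalised counts (−0.09 to 0.37). Ccl7 was at 2.27 TPM in Fabp4-/- and 2.08 TPM in WT, with log2 ratios of 0.10 and 0.69. Of the CCR2 ligands only Ccl12 was at least 2-fold lower, and the sign of Ccl2 depended on the scale.

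The eosinophil attractants of CCR3 differed in sign. Ccl11 (eotaxin) was at 0.31 TPM in Fabp4-/- and 1.02 TPM in WT. Ccl24 (eotaxin-2), which is made by macrophages, was at 1.15 TPM in Fabp4-/- and 0.29 TPM in WT, from 35 and 12 read pairs, with a log2 ratio of 1.91 by normalised counts (0.93 to 2.99). Ccl24 had the highest ratio by normalised counts among measured ligands, on few reads.

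Ligands of lymphocyte and dendritic cell traffic were mostly lower. Ccl17 and Ccl22, which attract regulatory and Th2 T cells through CCR4, were at 0.41 and 0.84 TPM in Fabp4-/-, against 1.87 and 2.43 TPM in WT. Ccl20, the ligand of CCR6, was at 0.77 TPM in Fabp4-/- and 2.11 TPM in WT. Ccl25, the ligand of CCR9, was at 3.95 TPM in Fabp4-/- and 7.65 TPM in WT. These 4 ligands had log2 ratios by normalised counts between −1.58 and −0.70. Ccl27a, a ligand of CCR10, was at 15.6 TPM in Fabp4-/- and 16.6 TPM in WT, with log2 ratios of −0.09 by TPM and 0.48 by normalised counts.

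The CCR7 ligands, which bring naive T cells and mature dendritic cells to lymphoid tissue, were lower in Fabp4-/-. Ccl19 was at 1.33 TPM in Fabp4-/- and 7.47 TPM in WT. Ccl21a was at 0.28 TPM in Fabp4-/- and 2.05 TPM in WT. Ccl21c was at 0.07 TPM in Fabp4-/- and 1.19 TPM in WT, from 2.37 and 37.3 estimated read pairs. With these reads rounded to whole pairs, the level was 14.4-fold lower (3.71 to 123). Without rounding and with the pseudocount, the log2 ratio by normalised counts was −3.39. The Ccl21 copies are nearly identical and RSEM divides their reads by estimate, so the value of a single copy is uncertain. Summed over all 6 Ccl21 rows, the level was 0.70 TPM in Fabp4-/- and 3.64 TPM in WT, with a log2 ratio by normalised counts of −2.28 (−3.11 to −1.53). The 2 Ccl19 rows summed to the same TPM as the first alone, and the 4 Ccl27 rows to 15.6 TPM in Fabp4-/- and 17.4 TPM in WT.

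Both CCR8 ligands were lower in Fabp4-/-. Ccl8 (ENSMUSG00000009185.2, chr11:82115185-82116799, plus strand), a ligand of CCR8 in mice, was at 0.64 TPM in Fabp4-/- and 11.6 TPM in WT, from 11 and 172 read pairs, a 12.2-fold lower level (6.62 to 24.8). Ccl1 was at 0 TPM in Fabp4-/- and 0.67 TPM in WT, from 0 and 10 read pairs. With the 3 read pairs that a count of 0 allows in Fabp4-/-, Ccl1 was at least 2.59-fold lower with the WT reads taken as exact, and at least 1.74-fold lower by the 95% interval, which also covers their counting error.

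The single CX3C ligand and the XC ligand were lower too. Cx3cl1 (fractalkine), a membrane-bound ligand of endothelium and epithelium, was at 1.08 TPM in Fabp4-/- and 6.52 TPM in WT. Xcl1 (lymphotactin), which T and NK cells release to attract cross-presenting dendritic cells, was at 0.90 TPM in Fabp4-/- and 4.35 TPM in WT. Both were lower by more than 2-fold on either scale.

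The neutrophil attractants that bind CXCR2 were split between 2 that were higher and 2 that were lower by normalised counts. Cxcl1 (ENSMUSG00000029380.11, chr5:90891241-90893115, plus strand), also made by hepatocytes, was at 207 TPM in Fabp4-/- and 137 TPM in WT, from 11450 and 6569 read pairs. Its log2 ratio was 0.59 by TPM and 1.17 by normalised counts (1.12 to 1.21). Cxcl2 was at 1.84 TPM in Fabp4-/- and 1.55 TPM in WT, from 110 and 57.9 read pairs, with log2 ratios of 0.19 by TPM and 1.29 by normalised counts (0.82 to 1.77). Cxcl3 was at 0.35 TPM in Fabp4-/- and 1.03 TPM in WT, and Cxcl5 at 0.26 TPM in Fabp4-/- and 0.66 TPM in WT. The counting intervals of Cxcl3 (−1.55 to 0.09) and Cxcl5 (−1.61 to 0.02) reached past 0. Cxcl1 made up 50.2% of the summed TPM of all ligands in Fabp4-/- (412 TPM) and 22.6% in WT (605 TPM).

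The promoters of Cxcl1, Cxcl2 and Cxcl3 are compared because these genes held the same 11-base run of overlapping NF-kB-like matches and yet did not share a sign by either scale. The sign of Cxcl3 is uncertain, since its counting interval (−1.55 to 0.09) included 0 and it reached 1 TPM in WT alone. These genes were chosen after their values were seen. Each run below gives that match in capitals with 20 bases on either side (RefSeq, GRCm38.p6, plus strand, 5′ to 3′), at chr5:90891154-90891204 for Cxcl1, chr5:90903782-90903832 for Cxcl2 and chr5:90786008-90786058 for Cxcl3.
Cxcl1: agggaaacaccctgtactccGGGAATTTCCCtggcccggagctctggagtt
Cxcl2: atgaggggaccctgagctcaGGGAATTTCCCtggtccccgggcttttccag
Cxcl3: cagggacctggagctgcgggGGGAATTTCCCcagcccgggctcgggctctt
The capitals run from −71 to −61 in Cxcl1, from −97 to −87 in Cxcl2 and from −73 to −63 in Cxcl3, counted from the start site. The forward and reverse matches share 9 of 10 bases and are 1 stretch of DNA.

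Ligands of CXCR4, CXCR5 and CXCR6 had smaller ratios. Cxcl12, which retains CXCR4-bearing cells in stroma, was at 34.7 TPM in Fabp4-/- and 47.0 TPM in WT, with log2 ratios of −0.43 by TPM and 0.08 by normalised counts. Cxcl13, the B cell attractant, was at 17.9 TPM in Fabp4-/- and 15.4 TPM in WT. Cxcl16, the ligand of CXCR6, was at 9.59 TPM in Fabp4-/- and 22.8 TPM in WT, with log2 ratios of −1.20 and −0.64. The sign of Cxcl12 turned with the scale, and only Cxcl16 was at least 2-fold lower, by TPM alone.

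Of the remaining ligands, Cxcl17 was higher in Fabp4-/- under every scale. Cxcl17 (ENSMUSG00000060188.6, chr7:25400053-25412886, minus strand), a mucosal chemokine, was at 7.36 TPM in Fabp4-/- and 3.11 TPM in WT, from 224 and 82 read pairs, with log2 ratios of 1.12 by TPM and 1.81 by normalised counts (1.44 to 2.20). Cxcl14 was at 2.34 TPM in Fabp4-/- and 3.77 TPM in WT, with log2 ratios of −0.59 and −0.12. The other 11 ligand rows below 1 TPM in both libraries, beside Ccl1 and Cxcl5, were Ccl26, Ccl28, Cxcl15 and copies of Ccl19, Ccl21 and Ccl27, at no more than 0.76 TPM.

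**Figure D2:**
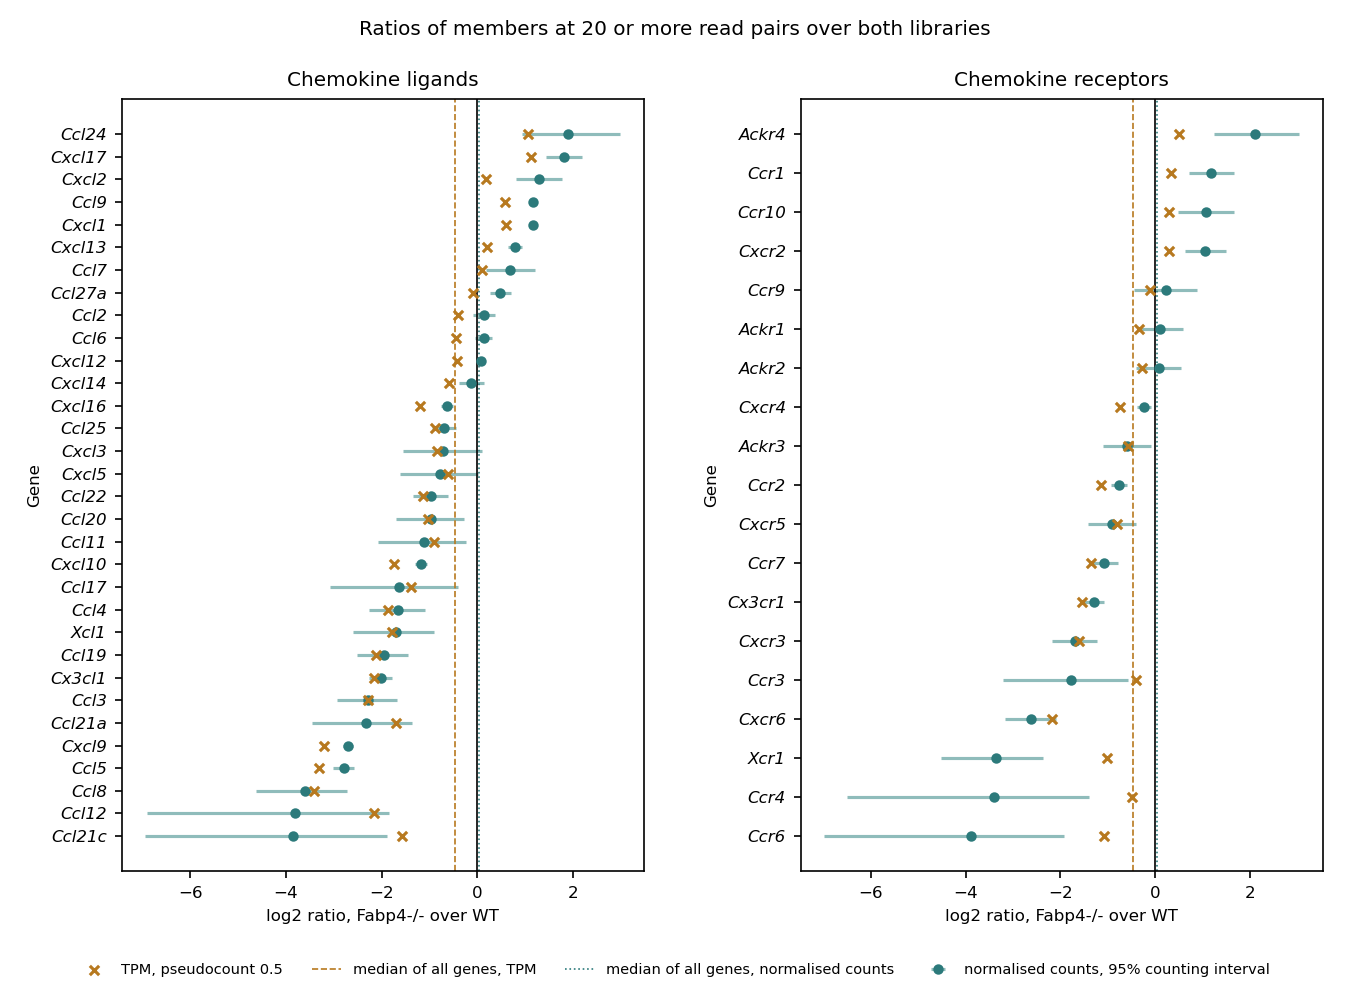
Log2 ratios of Fabp4-/- over WT for 32 ligand and 19 receptor rows with 20 or more read pairs over both libraries, as circles with 95% counting intervals for normalised counts (without a pseudocount) and as crosses for TPM (with it). Vertical lines mark the medians of all genes, −0.46 by TPM and 0.04 by normalised counts, and the intervals widen toward the bottom, where members such as Ccl12 rest on 2 read pairs in Fabp4-/-.

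Receptor transcripts were scarcer than those of ligands, at 20.99 TPM in Fabp4-/- and 48.5 TPM in WT when summed over all 23. Of these, 9 reached 1 TPM in the higher library, 6 in both and 3 in WT alone, and 14 stayed below it in both. Of the 9, 6 were at least 2-fold lower by TPM (median −1.35) and 0 were higher, beside 14.2% and 2.18% of all genes. Normalised counts gave 5 lower and 0 higher (median −1.08), beside 7.60% and 5.76%. The 3 that reached 1 TPM in WT alone, Cxcr3, Cxcr5 and Cxcr6, had to be lower. Among the 6 receptors at 1 TPM or more in both libraries, 4 were lower on the TPM scale and 3 on that of normalised counts, where all genes with this filter had 10.6% and 3.36%. Counted instead by reads, 20 receptors had 20 or more read pairs over both libraries, of which 9 were at least 2-fold lower and 4 were at least 2-fold higher by normalised counts, against 10.9% and 5.98% of the 16617 genes with as many reads. The counting interval lay below 0 for 13 of the 20 and above 0 for 4. By the same filter, 14 of 32 ligands were lower and 5 were higher, beside the same shares, with the interval below 0 for 18 and above 0 for 9. Intervals that exclude 0 were not counted over all genes. With many reads they exclude 0 even for a small ratio, as for Cxcl12 (0.08, 0.02 to 0.14). These interval counts are therefore no result about the members.

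Receptors of effector and tissue-resident T cells were lower. Cxcr3, the receptor of Cxcl9 and Cxcl10, was at 0.58 TPM in Fabp4-/- and 2.80 TPM in WT, from 48 and 200 read pairs. Cxcr6, which marks liver-resident T and NK cells and binds Cxcl16, was at 0.38 TPM in Fabp4-/- and 3.48 TPM in WT, from 35 and 275 read pairs, with a log2 ratio by normalised counts of −2.61 (−3.16 to −2.10). Both were at least 2-fold lower on either scale, but both reached 1 TPM in WT alone and so had to be lower.

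Receptors of myeloid cells did not share a direction. Ccr2, the receptor of inflammatory monocytes, was at 2.36 TPM in Fabp4-/- and 5.78 TPM in WT, with log2 ratios of −1.13 by TPM and −0.76 by normalised counts. Cx3cr1, the fractalkine receptor of monocytes and macrophages, was at 1.29 TPM in Fabp4-/- and 4.70 TPM in WT, with log2 ratios of −1.54 and −1.30. Ccr1, on monocytes and neutrophils, was at 0.76 TPM in Fabp4-/- and 0.50 TPM in WT, from 107 and 61 read pairs, with a log2 ratio by normalised counts of 1.17 (0.71 to 1.65). Cxcr2, the main chemokine receptor of neutrophils, was at 0.79 TPM in Fabp4-/- and 0.56 TPM in WT, from 120 and 74 read pairs, with a log2 ratio of 1.06 (0.63 to 1.5). Ccr1 and Cxcr2 were thus higher by reads although both stayed below 1 TPM. Ccr3, the eosinophil receptor, had 7 read pairs in Fabp4-/- and 31 in WT, with a log2 ratio of −1.78 (−3.21 to −0.57).

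Receptors of lymphocyte homing and of dendritic cells followed. Ccr7 was at 1.35 TPM in Fabp4-/- and 4.23 TPM in WT. Cxcr5, the B cell receptor for Cxcl13, was at 0.36 TPM in Fabp4-/- and 1 TPM in WT. Xcr1, a marker of cross-presenting dendritic cells, was at 0.04 TPM in Fabp4-/- and 0.60 TPM in WT, from 9 and 118 read pairs, with a log2 ratio by normalised counts of −3.35 (−4.51 to −2.38). Each of these was lower in Fabp4-/-, and Xcr1 by the most. Ccr4 had 2 read pairs in Fabp4-/- and 27 in WT, and Ccr6 had 2 and 38. Ccr8, on regulatory and Th2 T cells, had 0 read pairs in Fabp4-/- and 16 in WT, so that it was at least 4.14-fold lower by the same floor and 2.997-fold lower by the interval. Ccr10, which binds Ccl27, went the other way, with 65 read pairs in Fabp4-/- and 40 in WT and a log2 ratio of 1.06 (0.47 to 1.67). Ccr9 had 39 read pairs in Fabp4-/- and 43 in WT, and its interval included 0.

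Cxcr4, the receptor of Cxcl12 on most leukocytes, had the highest TPM of all receptors in both libraries, at 6.75 TPM in Fabp4-/- and 11.6 TPM in WT. Its log2 ratio was −0.74 by TPM and −0.24 by normalised counts (−0.39 to −0.08). The atypical receptors bind chemokines without signaling through G proteins and so limit their supply. Ackr1, on venular endothelium and red cell precursors, was at 1.28 TPM in Fabp4-/- and 1.77 TPM in WT, with log2 ratios of −0.35 by TPM and 0.10 by normalised counts. Ackr2 and Ackr3 were at 0.51 and 0.33 TPM in Fabp4-/-, against 0.72 and 0.74 TPM in WT. Ackr4, which removes Ccl19, Ccl21 and Ccl25, was at 0.42 TPM in Fabp4-/- and 0.15 TPM in WT, from 50 and 15 read pairs, with a log2 ratio by normalised counts of 2.10 (1.24 to 3.04). Ackr4 had the highest ratio of any receptor with 20 or more read pairs, while its ligands Ccl19, Ccl21a and Ccl25 were lower in Fabp4-/-, and its row overlaps rows of other genes. Cxcr1 and Ccr1l1 had 1 or 2 read pairs per library.

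Ligands were set beside their receptors in 33 pairs written down from textbook knowledge, of which 32 had both genes among the members (Cxcl11 was not one) and 29 had 20 or more read pairs for each gene. By normalised counts, ligand and receptor were both lower in Fabp4-/- in 13 pairs and both higher in 5, while the ligand alone was higher in 6 and the receptor alone in 5. Pairs of members with CXCR3, CXCR6, CCR4, CCR6, CCR7, CX3CR1 and XCR1 were lower on both sides. Cxcl11, left out here as a pseudogene in the annotation, had a positive ratio. Cxcr2 was higher together with Cxcl1 and Cxcl2 but not with Cxcl3 and Cxcl5, and Ccr1 was higher together with Ccl9 but not with Ccl3 and Ccl5. By normalised counts alone, Ccl6 was also above 0 beside Ccr1 and Ccl27a beside Ccr10, and the interval of Ccl6 included 0. Pairs share receptors and ligands and are not independent. Pairs of other genes were not counted, so these counts describe the members only.

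**Figure D3:**
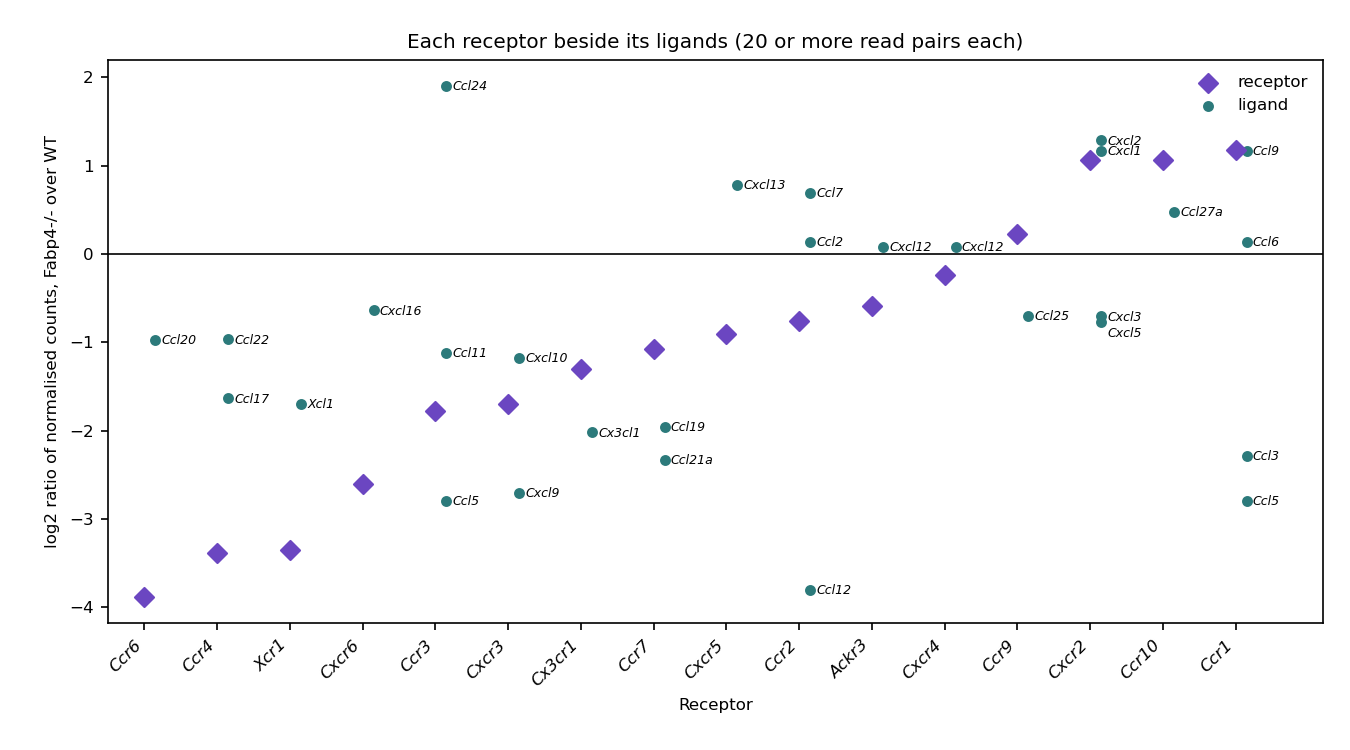
Log2 ratios of normalised counts, Fabp4-/- over WT, for each receptor (diamonds, sorted from low to high) and beside it the ligands that bind it (circles), for the 29 pairs with 20 or more read pairs for each gene. Cxcr3 (plotted without Cxcl11) and Ccr7 lie below 0 with all their plotted ligands, whereas Ccr1 and Cxcr2 lie above 0 with ligands on both sides.

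Many chemokine genes lie in clusters, and direct neighbors did not always share a direction. In the 139 kb from Ccl5 to Ccl4 on chromosome 11, Ccl5, Ccl3 and Ccl4 were lower in Fabp4-/-, while Ccl9, which lies 47.1 kb from Ccl5, was higher by both scales. In the 270 kb from Ccl2 to Ccl1 on the same chromosome, Ccl11, Ccl12 and Ccl8 were lower and Ccl7 was higher by both scales, with Ccl2 turning sign between scales. On chromosome 5, Cxcl1 and Cxcl2 were higher and Cxcl3 and Cxcl5, in the same 147 kb, had negative ratios whose intervals included 0. Cxcl9 and Cxcl10, within 27.5 kb, were both lower, as were Ccl22, Cx3cl1 and Ccl17 within 66.4 kb of chromosome 8. Among 7 receptor genes in 435 kb of chromosome 9, Ccr1 was higher and stood between Xcr1 and Ccr3, which were lower.

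**Figure D4:**
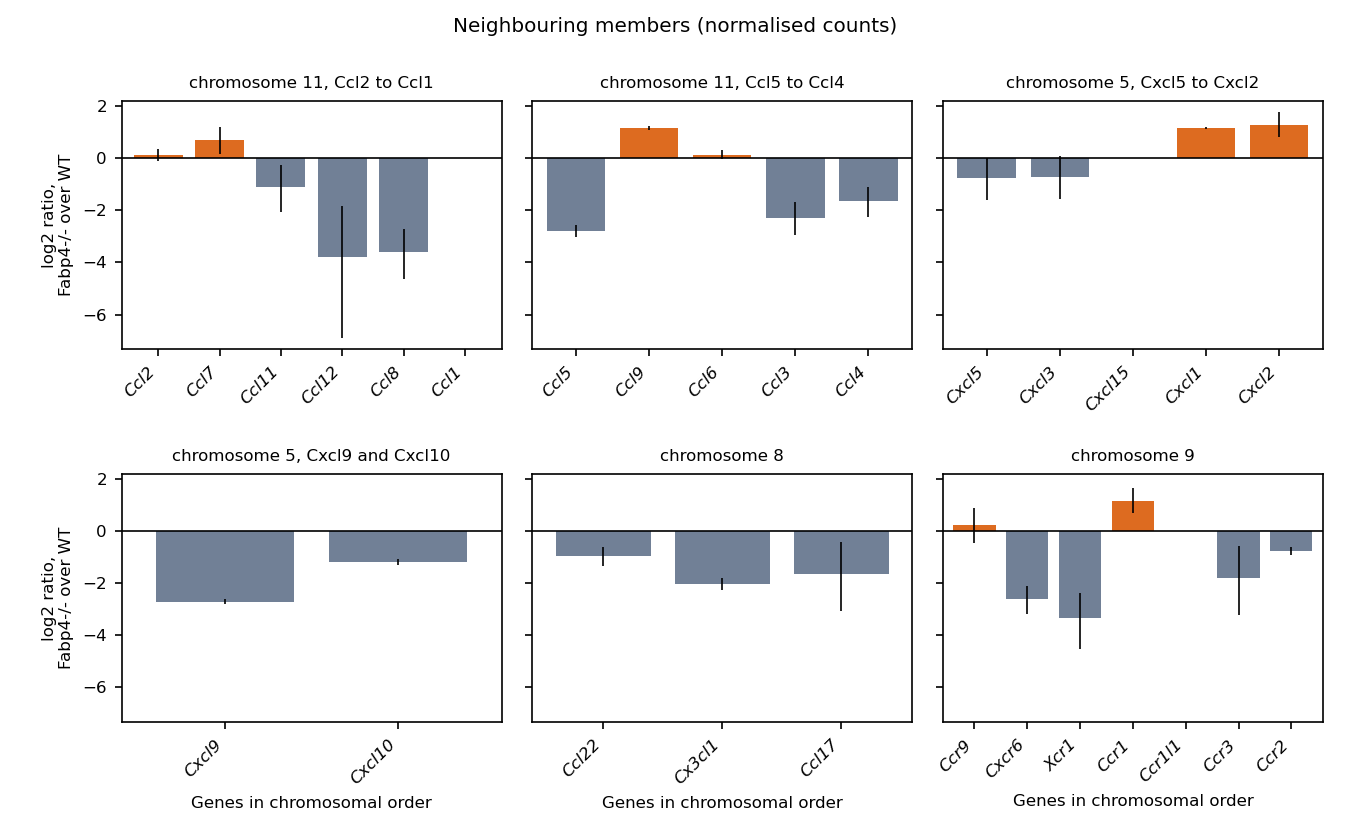
Log2 ratios of normalised counts, Fabp4-/- over WT, for members in 6 genome clusters, as bars in chromosomal order with 95% counting intervals, orange above 0 and gray below. Ccl1, Cxcl15 and Ccr1l1 had fewer than 20 read pairs and have no bar, and Ccl9 lies above 0 next to Ccl5 below it, as does Ccr1 next to Xcr1, while Cxcl1 and Cxcl2 stand side by side above 0.

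Markers of the cells that make and follow these chemokines differed in the same libraries. The background for all marker counts here and below is the 13557 genes at 1 TPM or more in the higher library. Of these genes, 14.2% passed the 2-fold threshold downward in Fabp4-/- on the TPM scale, and 2.18% upward. On the scale of normalised counts the shares were 7.60% downward and 5.76% upward. Each marker list is short, so a single marker makes up a large share of it. The 8 T cell markers were without exception at least 2-fold lower in Fabp4-/- by both scales, with medians of −2.57 (TPM) and −2.36 (normalised counts) and a summed level of 9.71 TPM in Fabp4-/- and 83.5 TPM in WT. Cd8a, for example, was at 0.40 TPM in Fabp4-/- and 7.91 TPM in WT. Of 5 NK cell markers, 3 were measured at 1 TPM and all 3 were lower, at a summed 2.48 TPM in Fabp4-/- and 20.5 TPM in WT over the list. Cd3d, Cd3e, Cd4 and Cd8a, and the NK cell markers Klrk1 and Eomes, reached 1 TPM in WT alone and so had to be lower. The ratio of Ccl5 by normalised counts, −2.79, thus lay within the range of the 8 T cell markers, −3.75 for Cd8a to −1.52 for Cd4, as did those of Cxcr3, Cxcr6 and Xcl1. This range is wide and also held Ccl8, Cxcl9, Ccl3, Cx3cl1 and Ccl19, among others, so the match was not particular to genes of T and NK cells. The part of these cells in the chemokine values was not tested.

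Of 4 neutrophil markers, 1 was higher by at least 2-fold on the TPM scale and 2 on that of normalised counts (median 0.96), at a summed 59.4 TPM in Fabp4-/- and 45.5 TPM in WT. Retnlg was at 2.46 TPM in Fabp4-/- and 0.67 TPM in WT, and since it reached 1 TPM in Fabp4-/- alone it had to be higher. The ratios of Cxcl1, Cxcl2 and Cxcr2 by normalised counts lay within the range of these markers, 0.33 for Csf3r to 2.39 for Retnlg. They lay as well within that of the hepatocyte markers, 0.79 for Serpina1a to 1.67 for Ttr, so the match was not particular to neutrophils. By TPM, the log2 ratio of Csf3r was −0.16. Of 5 monocyte and macrophage markers, 0 were at least 2-fold apart by either scale (135 TPM in Fabp4-/- and 215 TPM in WT, summed), and of 3 measured Kupffer cell markers 2 were higher by normalised counts only (53.0 and 46.3 TPM, summed over 4). All 4 B cell markers were lower by TPM and 2 of them by normalised counts, at a summed 8.33 TPM in Fabp4-/- and 27.1 TPM in WT. Of 5 dendritic cell markers 2 were lower, of which Clec9a, like Xcr1 a marker of cross-presenting cells, was at 0.31 TPM in Fabp4-/- and 2.74 TPM in WT. Clec9a and the B cell marker Ms4a1 reached 1 TPM in WT alone and so had to be lower.

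Of 4 mast cell markers 3 were lower, and the summed level of the 4, 2.59 TPM in Fabp4-/-, stood against 89.7 TPM in WT. The 3 reached 1 TPM in WT alone and so had to be lower. Of 4 hepatocyte markers, those at least 2-fold higher numbered 1 on the TPM scale and 2 on that of normalised counts (median 0.43 and 0.998), endothelial markers had medians of 0.16 and 0.61, and stellate cell markers of −0.51 and −0.02. Of 4 cholangiocyte markers, 2 were lower, Krt7 and Epcam, which had to be, as they reached 1 TPM in WT alone. No marker was at 0 in either library. The parts of these cell types in the values of single chemokines were not tested.

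Ifng, which encodes interferon-gamma, an inducer of the CXCR3 ligands, had 0 read pairs in Fabp4-/- and 37 in WT (0.78 TPM), and was at least 9.58-fold lower when 3 read pairs are allowed in Fabp4-/- and 7.41-fold lower by the interval. Of 12 measured genes of the interferon-gamma axis, 6 were at least 2-fold lower by TPM (median −1.03) and 4 by normalised counts (median −0.51), and 1, the feedback inhibitor Socs1, was higher by normalised counts. The shares over all genes were 14.2% lower by TPM, and 7.60% lower and 5.76% higher by normalised counts. Jak1, Jak2, Ifngr1 and Ifngr2, which carry the signal, were less than 2-fold apart on either scale. Irf1, an interferon-induced transcription factor, was at 11.4 TPM in Fabp4-/- and 40.9 TPM in WT. Gbp2, an interferon-induced GTPase, was at 1.32 TPM in Fabp4-/- and 14.7 TPM in WT. Its log2 ratio by normalised counts, −2.91, was the lowest of the 12. That of Cxcl9, −2.70, thus lay near this extreme and far from the median of the 12, −0.51. The part of interferon-gamma in the values of single chemokines was not tested.

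Of 16 measured genes of the NF-kB and inflammatory cytokine axis, 4 were at least 2-fold lower by TPM (median −0.69) and 2 by normalised counts (median −0.11), and 1 was higher by normalised counts. Beside the shares over all genes just given, the 2 and the 1 of 16 lay near the background. Ltb, a lymphocyte cytokine, was at 8.70 TPM in Fabp4-/- and 47.0 TPM in WT, and Tnf at 0.40 TPM in Fabp4-/- and 1.78 TPM in WT. Il1a was the gene that was higher, at 4.22 TPM in Fabp4-/- and 2.49 TPM in WT. Of 31 measured genes that carry the signal below chemokine receptors (G protein subunits, PI3Kγ subunits, Rac activators, arrestins), 13 were lower by TPM (median −0.90) and 5 by normalised counts (median −0.39), and 0 were higher, beside 14.2% and 7.60% lower over all genes. The 5 included Plcb2, at 0.70 TPM in Fabp4-/- and 4.04 TPM in WT, and Dock2, a Rac activator of leukocytes, at 1.67 TPM in Fabp4-/- and 4.95 TPM in WT. The widely expressed subunit Gnai2 was at 104 TPM in Fabp4-/- and 151 TPM in WT, with log2 ratios of −0.54 by TPM and 0.05 by normalised counts.

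**Figure D5:**
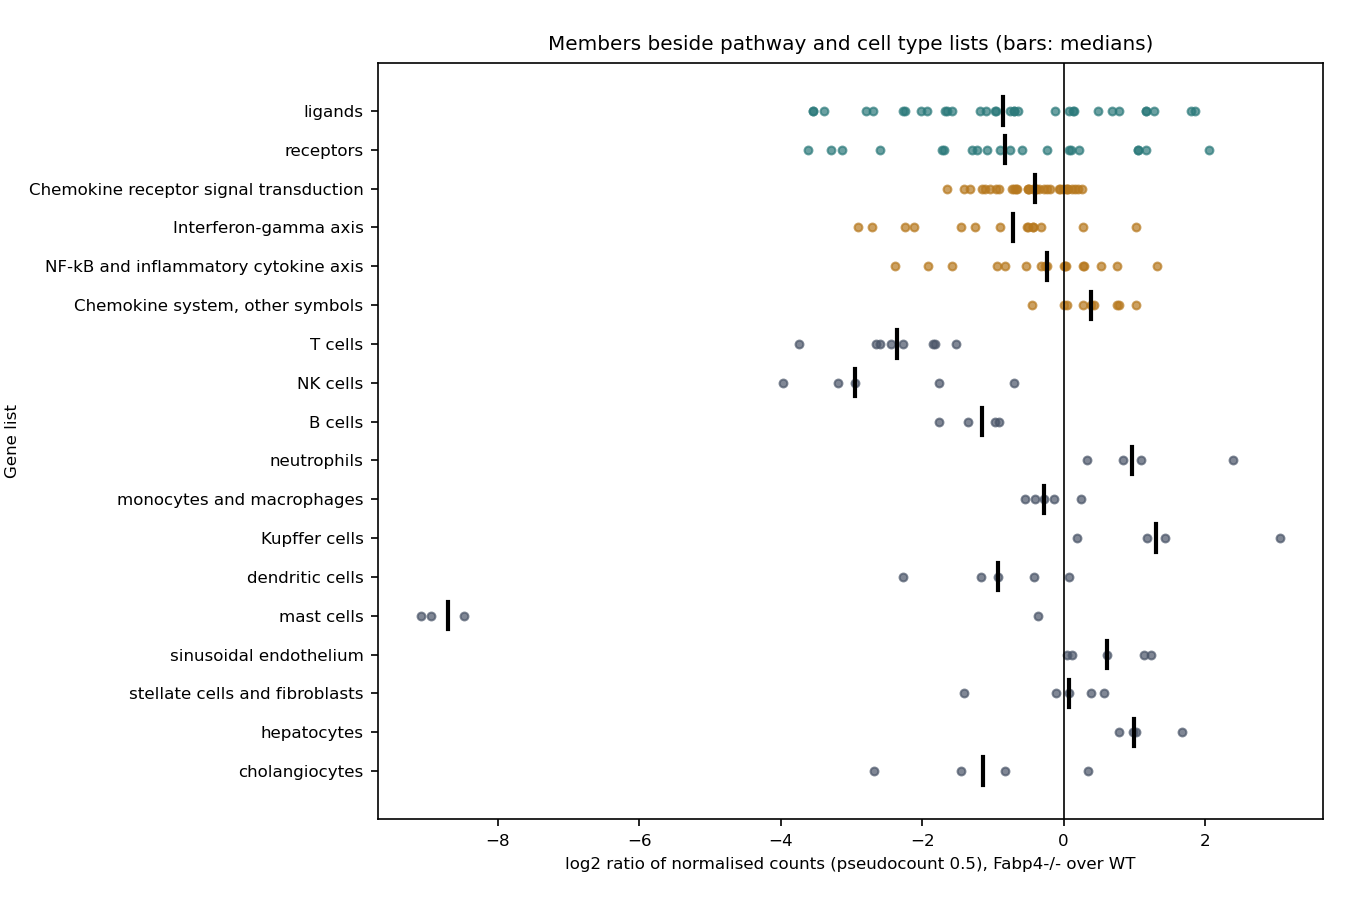
Log2 ratios of normalised counts (pseudocount 0.5), Fabp4-/- over WT, for genes with 20 or more read pairs over both libraries and above 0 in each, by list, with black bars at the medians. The 32 ligands and 20 receptors (teal, medians −0.86 and −0.83) spread from below −3 to near 2, while the 8 T cell markers lie wholly below 0 and the 4 neutrophil markers wholly above it.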

How the data were processed

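PolyA RNA of Fabp4-/- and WT liver tumors was sequenced by the authors as paired ends of 151 bases, 1 library per genotype. RSEM 1.2.31, STAR 2.5.2 and the mouse build mm10 are credited to the submitters' processing notes, without settings or strand mode, which were not given in the sources used here. RNA came from a spin-column kit and a NovaSeq run per the labels, but from TRIzol and other Illumina machines per the supplemental methods. The authors deposited TPM values, which sum to 1000000 per library, and normalised counts, a signal on a read scale. Their fold changes, posterior probabilities and FDR were not used.

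TPM were analysed as deposited, with 0.5 added to each value. A gene was measured where its higher library reached 1 TPM, and a difference was counted at 2-fold. Normalised counts stood beside them with a pseudocount of 0.5. Estimated read pairs are the normalised counts divided by their most frequent value above 0 (1.13 for Fabp4-/- and 0.882 for WT). Of these estimates, 86.4% for Fabp4-/- and 86.0% for WT were whole to within 0.0001 read pairs, too few for a test on counts. Intervals are exact binomial, at 95%, and cover counting error only, since amplified copies of a molecule cannot be told apart. They, and the ratios given with them, use reads rounded to whole pairs, without the pseudocount. A count of 0 was taken to allow 3 read pairs. Measured members are given with their TPM, apart from what is not reported here by name, which stays in the counts and sums over members. Reads and intervals are given for Cxcl9, Ccl5, the members with the 5 lowest and 5 highest ratios by normalised counts, and some others chosen after their values were seen. At most 4 genes were to be named from each of 16 gene lists. More are named from the interferon-gamma axis and from the chemokine genes outside the naming rule. The members, lists and pairs were chosen with earlier results of these data known. Coordinates are those of the deposited table, and 48 of 67 rows have the same position in GENCODE M21. The ratio and interval code was tested on simulated data. Analyses ran in Python 3.11.15 (pandas 2.3.3, numpy 2.4.6, matplotlib 3.10.9, scipy 1.17.1).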

Additional observations from a re-analysis of the deposited data

How the results depend on the processing

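No paired analysis was possible because a single library stands for each genotype. The medians of all measured ligands and of all measured receptors stayed below 0 under every alternative, but that of the 19 ligands at 1 TPM or more in both libraries was −0.44 by TPM and 0.08 by normalised counts, and that of the 9 chemokine genes outside the naming rule was −0.17 and 0.39. The 16 ligands at least 2-fold lower were 9 with a minimum of 5 TPM and 7 at 4-fold. The 2 ligands higher were 5 by normalised counts, 4 with upper quartile scaling, 4 with median centring, 1 each with a pseudocount of 1, a minimum of 5 TPM and a mean of at least 1 TPM, and 0 at 4-fold. The ligand median of −1.04 was −0.68 with upper quartile scaling, −0.71 with median centring, −0.92 without the 20 most abundant genes, −1.34 and −0.81 with pseudocounts of 0.1 and 1, and −0.86 with no minimum. The 6 receptors lower were 3 with upper quartile scaling, 3 with median centring, 2 with a minimum of 5 TPM and 1 at 4-fold. The receptor median of −1.35 was −1.08 by normalised counts, −0.92 with upper quartile scaling, −0.95 with median centring, −1.22 without the 20 most abundant genes, −1.49 and −1.15 with pseudocounts of 0.1 and 1, −0.58 with no minimum, −1.13 with a minimum of 5 TPM and −0.66 with at least 20 read pairs. By normalised counts with at least 20 read pairs, chosen after seeing the data, 5 ligands and 4 receptors were higher, and the medians were −0.86 and −0.83. Other minimums and thresholds change which members enter or count, and otherwise the cause was not tested.

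Over all genes, 1928 lower and 296 higher by TPM became 752 and 623 with upper quartile scaling, 814 and 573 with median centring, and 1030 and 781 by normalised counts. Of 40 measured members, 35 kept one sign under every scaling and pseudocount, and Ccl2, Ccl6, Ccl27a, Cxcl12 and Ackr1 did not. At least 2-fold lower under all of these were 13 ligands (Ccl3, Ccl4, Ccl5, Ccl8, Ccl12, Ccl17, Ccl19, Ccl21a, Ccl21c, Cx3cl1, Xcl1, Cxcl9 and Cxcl10) and 3 receptors (Cx3cr1, Cxcr3 and Cxcr6), and 1 ligand, Cxcl17, was higher. Among those lower, Ccl3, Ccl8, Ccl12, Ccl17, Ccl21a, Ccl21c, Xcl1, Cxcr3 and Cxcr6 reached 1 TPM in WT alone and so had to be lower. Neither these counts nor that of one sign were made over all genes, so they describe the members only. With 1 library per genotype, differences between tumors, mice or libraries and those between genotypes cannot be told apart. Depth limits the receptors and the rarest ligands, where 2 read pairs in Fabp4-/- leave an interval of over 10-fold.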

Other observations

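Of 9 chemokines and chemokine regulators with other kinds of symbols, all measured, 0 were at least 2-fold apart by TPM and 1 by normalised counts, with medians of −0.17 and 0.39. The platelet chemokine Pf4 was at 5.6 TPM in Fabp4-/- and 4.60 TPM in WT, with log2 ratios of 0.26 and 1.02, and Ppbp was at 0.96 TPM in Fabp4-/- and 1.06 TPM in WT. Rarres2 (chemerin), which hepatocytes secrete, was at 741 TPM in Fabp4-/- and 831 TPM in WT, and its receptor Cmklr1 at 1.03 TPM in Fabp4-/- and 2.09 TPM in WT. Gpr182, an atypical chemokine receptor of sinusoidal endothelium, was at 6.92 TPM in Fabp4-/- and 6.09 TPM in WT, and Dpp4, a protease that trims chemokines, at 8.41 TPM in Fabp4-/- and 8.39 TPM in WT.

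Cxcl11, named for the other CXCR3 ligand, is annotated as a polymorphic pseudogene and so was not a member. Its RNA therefore need not give a working ligand, and protein was not measured. It was at 12.8 TPM in Fabp4-/- and 8.14 TPM in WT, from 1586 and 1024 read pairs, with log2 ratios of 0.62 by TPM and 0.99 by normalised counts (0.88 to 1.11). Its ratio was thus positive by both scales, while those of Cxcl9 and Cxcl10 were negative.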
